A study of Mus musculus with 4 samples.

Results

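The TRAV7 family other than TRAV7-2 was followed in the TCRα chains of splenic CD4 T cells from wild type (WT) and Tet2/3 DKO mice. A clone, which in the deposited tables is a distinct assembled TCRα sequence, was counted as a member when its first listed V segment, without the allele, was TRAV7-, TRAV7D- or TRAV7N- with a number other than 2. The rule found 24903 member clones among 189388 TCRα clones in all (13.1%), and they held 119342 of 871808 reads (13.7%). WT replicates 1 and 2 held 5237 and 6310 member clones, and Tet2/3 DKO replicates 1 and 2 held 5951 and 7405. The study sorted CD4+ CD25- TCRβ+ cells from the spleen of mice aged about 25 days, left out iNKT cells, and asked whether loss of TET2 and TET3 alters the receptor repertoire. WT mice were C57BL/6. Tet2/3 DKO mice carried a germline deletion of Tet2, which is absent from every cell of the animal, and a Tet3 flx/flx allele that CD4Cre deletes from the double positive stage of thymic development onwards, so TET3 was present in earlier thymocytes. There were 2 libraries per genotype, each made from 20 ng of RNA with a 5′ RACE kit that adds no molecular identifiers. Reads are therefore PCR copies, and confidence intervals and detection limits cover counting error only. The tables hold receptor chains and no marker genes, so the sorted cell type could not be checked in them. The TCRα total was 172506 reads in WT replicate 1, 216457 in WT replicate 2, 195046 in Tet2/3 DKO replicate 1 and 287799 in Tet2/3 DKO replicate 2. The labels call the replicates biological, without naming the animals. The 4 libraries allow exact tests no p-value below 0.333 between genotypes (permutation of the labels) and none below 0.125 for differences taken within each library (sign-flip permutation), so these p-values could not pass a threshold of 0.05.

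The TCRα chain is built in CD4 CD8 double positive thymocytes by joining a V segment to a J segment, with bases trimmed from both ends and bases inserted between them. The CDR1 and CDR2 loops are encoded in the V segment, and the CDR3 loop spans the join. Numbering of TRAJ segments runs down along the chromosome, so high numbers lie nearest to the V segments. Rearrangement of the locus starts with V segments at the J side and J segments at the V side, and can go on with V segments farther away and J segments farther down. In C57BL/6 mice a block of the V cluster is present in repeated copies, and a D or an N in a segment name marks the copies that lie upstream of the original block. TET2 and TET3 oxidize 5-methylcytosine and promote DNA demethylation.

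RefSeq annotates 14 TRAV7 genes on chromosome 14 of GRCm38.p6, all as V segments, of which 12 have a member's number. From the 5′ end, the members with a first hit are TRAV7-1 (chr14:52654817-52655329), TRAV7D-3 (chr14:52744314-52744838), TRAV7D-4 (chr14:52769863-52770392) and TRAV7D-5 (chr14:52835861-52836387). They are followed by TRAV7N-4 (chr14:53091346-53091875) and TRAV7N-6 (chr14:53324676-53325208). The original block holds TRAV7-3 (chr14:53443314-53443839), TRAV7-4 (chr14:53461209-53461738), TRAV7-5 (chr14:53530786-53531313) and TRAV7-6 (chr14:53716760-53717291). The end of TRAV7-6 lies 440 kb before TRAJ58, and the end of TRAV7-1 lies 1502 kb before it. TRAV7D-6 was not listed as a best hit of any clone. TRAV7N-5 was never the first hit, but it tied with TRAV7D-5 for the best score in all 5078 TRAV7D-5 clones, so the values given for TRAV7D-5 are those of both copies together.

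The CDR1 sequences below are shown because this loop tells an original segment from its copy for numbers 5 and 6. Each is the most common sequence among the clones of that segment, 5′ to 3′, and capitals mark bases that differ from TRAV7-5.
TRAV7-5: gatggtacttctaacaac
TRAV7D-5: gatCgtTcttctGacaac
TRAV7-6: gaCAgtGcttctCaGTCc
TRAV7N-6: AaCAgtGcttctCaGTCc
TRAV7-3: gaCAgtGcttctCaGTaT
TRAV7D-3: gaCAgtGcttctCaGTaT
TRAV7-4: gatCgtaAttTtCaGTac
TRAV7-1: gatCgtaAttctCaGTaT
TRAV7D-5 differs from TRAV7-5 at 3 of 18 CDR1 bases and at none of 18 CDR2 bases. TRAV7N-6 differs from TRAV7-6 at 1 CDR1 base and 1 CDR2 base. TRAV7-3 and TRAV7D-3 share both loops. Over the 264 bases from framework region 1 to framework region 3, the most common parts differed at 13 bases between TRAV7-5 and TRAV7D-5, at 9 between TRAV7-6 and TRAV7N-6, at 2 between TRAV7-3 and TRAV7D-3, and at 1 between TRAV7-4 and TRAV7D-4. The shown CDR1 was carried by 98.9% of TRAV7-5 clones and 98.9% of TRAV7D-5 clones. In TRAV7-4 it was carried by 93.8%, and 23 of 455 TRAV7-4 clones had the CDR1 of another TRAV7 number, most often that of TRAV7-2. In TRAV7N-4 the leading CDR1 was found in 89 of 116 clones. Assignments to the number 4 segments are therefore less certain than the rest, as are those that rest on the 2 bases between TRAV7-3 and TRAV7D-3.

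The family held a similar share of TCRα reads in both genotypes, and TRAV7-5 with its D copy made up most of it. Member reads were 15.4% of the library (95% Wilson confidence interval 15.2% to 15.5%) in WT replicate 1 and 13% (12.9% to 13.1%) in WT replicate 2. They were 12.6% (12.5% to 12.8%) and 13.9% (13.8% to 14.1%) in Tet2/3 DKO replicates 1 and 2. The Tet2/3 DKO values lay within or just below the WT range, and the log2 ratio of the means was -0.09 (exact two-sided permutation test, p = 0.667, n = 2 per genotype). Counted as clones, the family was 13.3% and 12.9% of WT clones and 12.6% and 13.7% of Tet2/3 DKO clones. WT replicate 1 held the single large clone described below, and without this library the log2 ratio was 0.03. For comparison, the copies of TRAV7-2, a single number, held 12.2% and 12% of reads in the WT libraries and 12.7% and 11.6% in Tet2/3 DKO.

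Among the members, usage spanned more than 2 orders of magnitude. TRAV7-5 held 6.62% and 5.98% of TCRα reads in WT versus 6.07% and 6.06% in Tet2/3 DKO, the highest level of any member in all 4 libraries. TRAV7D-5 followed with 4.89% and 2.53% in the WT libraries and 2.67% and 2.70% in Tet2/3 DKO. Its high value in WT replicate 1 contained a single clone with 36.8% of the TRAV7D-5 reads, and with the largest TRAV7D-5 clone of each library left out the shares were 3.15% and 2.50% in WT versus 2.60% and 2.57% in Tet2/3 DKO. TRAV7-3 held 1.21% and 1.75% in the WT libraries and 1.54% and 2.05% in Tet2/3 DKO. In Tet2/3 DKO replicate 2, 1549 of the 5895 TRAV7-3 reads came from a single clone with 0.538% of the library. TRAV7D-3 held 0.920% and 1.19% in WT versus 1.06% and 1.01% in Tet2/3 DKO. These 2 segments overlapped between genotypes, as did TRAV7-5 and TRAV7D-5. TRAV7N-6 held 0.823% and 0.737% in the WT libraries and 0.616% and 1.26% in Tet2/3 DKO, so that the Tet2/3 DKO libraries lay on both sides of WT. TRAV7-6 held 0.554% and 0.534% in WT versus 0.413% and 0.568% in Tet2/3 DKO. TRAV7-4 ranged from 0.115% to 0.190% over the libraries and TRAV7-1 from 0.0713% to 0.114%. TRAV7D-4 stayed between 0.0236% and 0.0410% and TRAV7N-4 between 0.0189% and 0.0320%, each with under 300 reads in all. TRAV7N-4 did not overlap between genotypes, at 0.0273% and 0.0189% in WT versus 0.0292% and 0.0320% in Tet2/3 DKO. These values rest on 47 and 41 reads in WT and 57 and 92 in Tet2/3 DKO (edgeR unadjusted p = 0.465). With 2 libraries per genotype, a lack of overlap gives an exact permutation p of 0.333, the smallest possible, and does not set this segment apart. In order of level, TRAV7-5 and TRAV7D-5 came first, then TRAV7-3 and TRAV7D-3, then TRAV7N-6 and TRAV7-6, then TRAV7-4 and TRAV7-1, with TRAV7D-4 and TRAV7N-4 last. Among neighbours in this order, the ranges over the 4 libraries overlapped for TRAV7D-3 and TRAV7N-6 and for TRAV7D-4 and TRAV7N-4, and did not overlap for the other pairs.

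**Figure D1:**
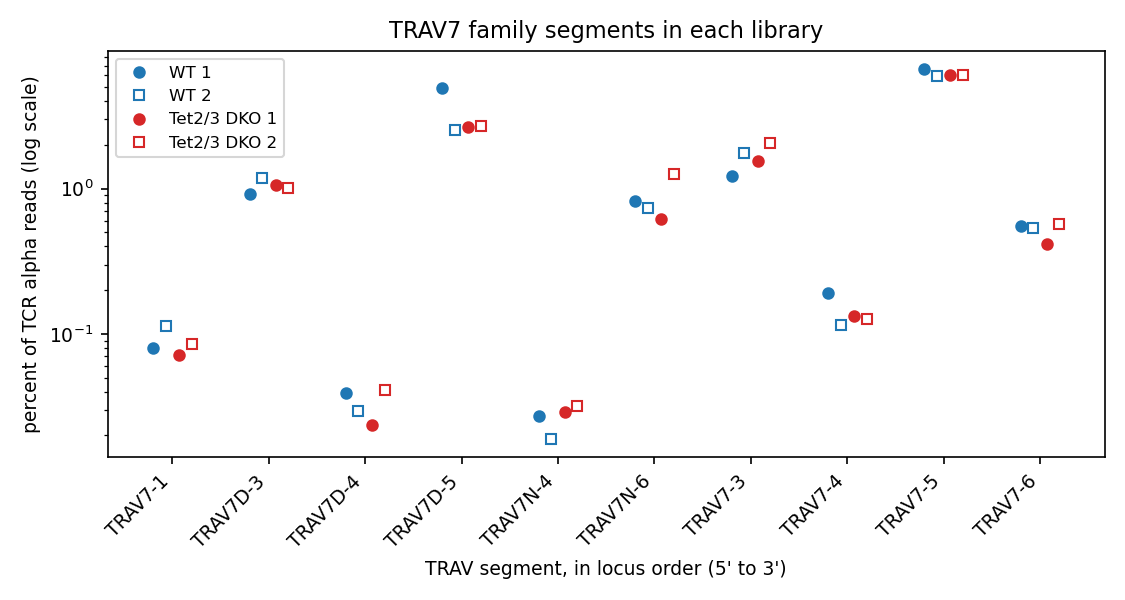
Share of TCRα reads (percent, log scale) of each member segment in locus order, 1 point per library, blue for WT and red for Tet2/3 DKO. TRAV7-5 lies near 6% in all 4 libraries, and TRAV7D-5 of WT replicate 1 (4.89%) stands apart from the other TRAV7D-5 values.

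Whether genotype alters segment usage was tested with edgeR's quasi-likelihood test on reads per TRAV segment, over 101 segments. None passed an adjusted p of 0.05 (0% called over all segments, and 3 segments at an unadjusted p under 0.05, none of them a member). Log2 fold changes of Tet2/3 DKO over WT ranged from -0.47 ± 0.27 (SE) for TRAV7D-5 to 0.41 ± 0.54 for TRAV7N-4, and edgeR gave an adjusted p of 0.972 for every member. DESeq2 also called no member. Without Tet2/3 DKO replicate 1, edgeR called 4 TRAV segments, none of them a member. A genotype fit with a library left out has 1 library in that arm, which is assumed to vary like the other genotype, so its calls do not show that members are alike.

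Original segments held 56.4% and 65.4% of the family's reads in the WT libraries and 65.2% and 63.8% in Tet2/3 DKO. The remainder went to the D and N copies, which the tables split only in part: 26867 of the 36289 reads listed under a D copy were TRAV7D-5 reads tied with TRAV7N-5. By the first listed hit, D copies held 38.1% and 28.8% in WT versus 29.7% and 26.9% in Tet2/3 DKO, and N copies held 5.54% and 5.82% in the WT libraries and 5.11% and 9.29% in Tet2/3 DKO, so these values are not shares of D and N usage as such. By reads, the exact permutation tests gave p = 1 for original segments, 0.667 for D and 1 for N. Counted as clones, the original share was 61.6% ± 0.559 (SD, n = 2) in WT and 61.5% ± 2.57 in Tet2/3 DKO (exact permutation test, p = 1). Clones listed under a D copy were 30.88% and 31.14% in WT versus 30.65% and 29.3% in Tet2/3 DKO, without overlap (exact permutation test, p = 0.333, the smallest possible).

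Some members differed in their J partners. TRAV7-6 was joined mainly to TRAJ segments at the V side of the J cluster, with 36.2% of clones at TRAJ48 to TRAJ58 and 33.8% at TRAJ37 to TRAJ47, and TRAV7-5 was spread over the cluster. The upstream copies of both had lower mean TRAJ numbers. The mean TRAJ number over the clones of TRAV7-6 was 40.6 and 40.7 in WT versus 42.6 and 40.8 in Tet2/3 DKO. That of its copy TRAV7N-6 was 21.3 and 22.8 in the WT libraries and 21.1 and 21.6 in Tet2/3 DKO. All 4 libraries therefore separated the original from its copy by a wide margin, with a mean difference of -19.5 ± 1.51 (SD of the 4 within-library differences, exact sign-flip permutation test, p = 0.125, the smallest possible). TRAV7-5 clones had a mean TRAJ number of 31.1 and 31.5 in WT versus 30.6 and 30.8 in Tet2/3 DKO, and TRAV7D-5 clones one of 25.91 and 24.97 in the WT libraries and 25.2 and 24.6 in Tet2/3 DKO. TRAV7D-5 was lower in all 4 libraries, by 5.84 ± 0.598 on average (difference -5.84, exact sign-flip permutation test, p = 0.125). TRAV7-3 and TRAV7D-3 had nearly equal means of 25.2 and 25.1 over all clones, with a difference of -0.02 ± 0.707 that took either sign among the libraries (exact sign-flip permutation test, p = 1). The equal means covered shifts of opposite direction along the J cluster. TRAJ26 to TRAJ35 took 26.64%, 23.19%, 26.98% and 24.14% of TRAV7D-3 clones (WT first, then Tet2/3 DKO, each by replicate number), against 32.96%, 30.96%, 33.7% and 34.85% of TRAV7-3 clones in the same order. TRAJ2 to TRAJ13 took 25.79%, 25.26%, 19.93% and 23.99% of TRAV7D-3 clones, against 18.09%, 16.96%, 17.7% and 16.68% of TRAV7-3 clones. TRAJ48 to TRAJ58 took 5.71%, 7.09%, 5.82% and 4.92% of TRAV7D-3 clones, against 4.04%, 2.73%, 2.32% and 4.01% of TRAV7-3 clones. TRAV7D-3 was thus lower in the middle of the J cluster and higher at both ends in 4 of 4 libraries, a description with no test. These 3 comparisons of copies were added after values were seen.

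**Figure D2:**
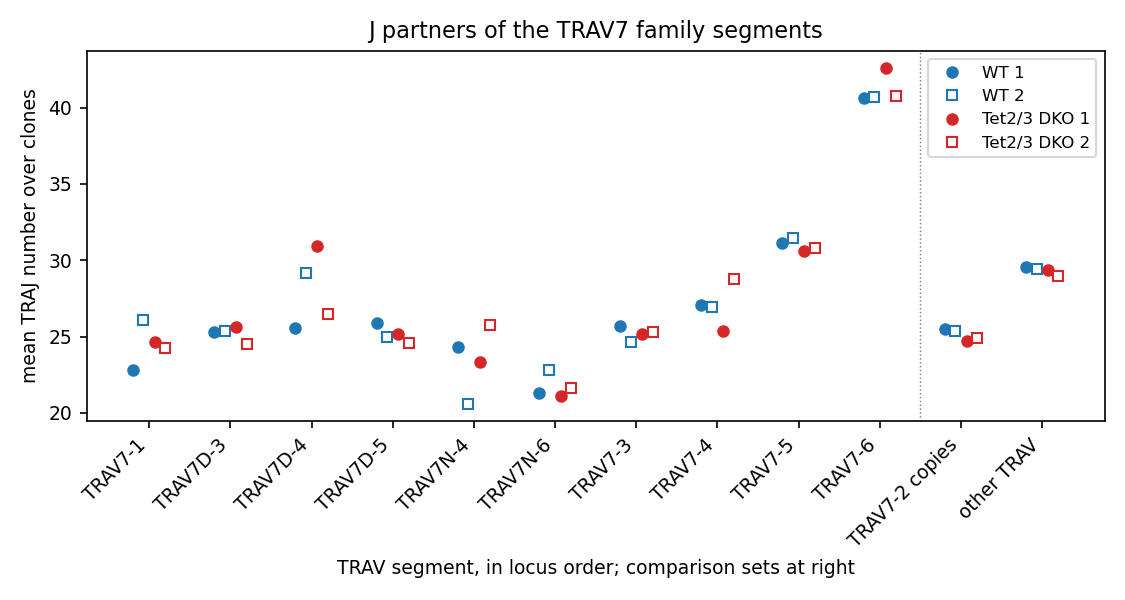
Mean TRAJ number over clones (higher numbers lie nearer to the V segments) for each member segment in locus order, with TRAV7-2 copies and all other TRAV clones at the right, 1 point per library. TRAV7-6 lies at 40.6 or above and TRAV7N-6 at 22.8 or below in all 4 libraries.

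Out-of-frame clones, which do not encode a receptor chain, gave the same order. In them the mean TRAJ number was 41.0 for TRAV7-6 (89 clones), 30.4 for TRAV7-5 (1228 clones), 25.1 for TRAV7D-5 (621 clones) and 22.1 for TRAV7N-6 (169 clones). Within libraries the copy differed from the original by -19.2 ± 3.36 for number 6 and by -5.31 ± 0.382 for number 5, lower in 4 of 4 libraries for both (exact sign-flip permutation tests, p = 0.125). Over all clones, in frame or not, the remaining members had means between those of TRAV7N-6 and TRAV7-5, 25.2 for TRAV7-3, 25.1 for TRAV7D-3, 27.0 for TRAV7-4, 27.9 for TRAV7D-4, 24.6 for TRAV7-1 and 23.7 for TRAV7N-4. The last 4 rest on 110 to 461 clones each. Among the 88 TRAV segments with at least 100 clones, TRAV7-6 ranked 12 from the highest mean TRAJ number, TRAV7-5 ranked 27, TRAV7-2 ranked 53 and TRAV7N-6 ranked 80. Over the 10 member segments, the rank correlation of position on the chromosome, towards the J cluster, with mean TRAJ number was 0.55. This is a description, since the segments share their libraries and some hold few clones. It also places TRAV7D-5 at its own position, 1321 kb before TRAJ58. All TRAV7D-5 clones tie with TRAV7N-5, which lies 1010 kb before TRAJ58, so their position is not settled.

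Segment by segment, the contrast between TRAV7N-6 and TRAV7-6 lay at both sides of the J cluster. edgeR called 31 of 43 TRAJ segments (72.1%) at an adjusted p under 0.05, with the library as a block. The 14 that were lower in TRAV7N-6 lay between TRAJ37 and TRAJ58, where TRAJ38, TRAJ39 and TRAJ40 were not called, and the 17 that were higher lay between TRAJ2 and TRAJ24. None from TRAJ26 to TRAJ35 was called. TRAJ57 held 3.98% and 2.16% of TRAV7-6 reads in WT versus 2.85% and 3.91% in Tet2/3 DKO, against 0 of 7850 TRAV7N-6 reads, which allows a share of up to 0.0382%. Over the 4 libraries together it was at least 86.2-fold higher in TRAV7-6. TRAJ11 showed the opposite, with 1.34% and 2.07% of TRAV7N-6 reads in the WT libraries and 2.58% and 2.78% in Tet2/3 DKO against 0 of 4553 TRAV7-6 reads, at least 35.6-fold higher in TRAV7N-6. TRAJ52 fell from a mean of 5.58% ± 0.701 (SD, n = 4) in TRAV7-6 to 0.156% ± 0.150 in TRAV7N-6 (edgeR adjusted p = 3.72e-05). TRAJ17 rose from 0.126% ± 0.146 in TRAV7-6 to 5.21% ± 0.788 in TRAV7N-6 (edgeR adjusted p = 5.14e-05). TRAJ31, near the middle of the cluster, was a common partner of both, with 7.16% of TRAV7-6 clones and 6.55% of TRAV7N-6 clones. Each library left out in turn gave 26 to 30 calls.

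Between TRAV7D-5 and TRAV7-5, edgeR called 25 of 43 TRAJ segments (58.1%). The 16 that were lower in TRAV7D-5 lay from TRAJ22 to TRAJ52 and the 9 that were higher from TRAJ4 to TRAJ15. In WT replicate 1, a single TRAJ26 clone held 36.8% of TRAV7D-5 reads, which leaves smaller read shares for the other TRAJ segments there. With each clone counted once, edgeR called 24 segments, 12 higher and 12 lower. TRAJ37 held 4.42% and 5.38% of TRAV7-5 reads in WT versus 4.81% and 4.98% in Tet2/3 DKO. In TRAV7D-5 it held 1.59% and 2.10% in the WT libraries and 1.04% and 1.82% in Tet2/3 DKO, below TRAV7-5 in every library (log2 fold change -1.62 ± 0.27, edgeR adjusted p = 0.00150). TRAJ12 held 1.82% and 1.24% of TRAV7-5 reads in WT versus 1.66% and 1.78% in Tet2/3 DKO, and 4.07% and 7.09% of TRAV7D-5 reads in the WT libraries and 5.96% and 6.96% in Tet2/3 DKO. It was higher in TRAV7D-5 in every library (log2 fold change 1.87 ± 0.31, edgeR adjusted p = 0.00150). TRAJ57, at the V-side end, held 1.12% of the reads of TRAV7-5 and 1.12% of those of TRAV7D-5 over the 4 libraries (log2 fold change -0.11 ± 0.35, edgeR adjusted p = 0.785). The number of calls was 8 without Tet2/3 DKO replicate 1, 16 without Tet2/3 DKO replicate 2 and 17 without either WT library. With TMM scaling, which shifted the median log2 fold change by 0.31 here and by 0.56 for number 6, edgeR called 18 segments for number 5, 11 higher and 7 lower. In TRAV7D-3 against TRAV7-3, edgeR called none of 42 TRAJ segments (0%), with 13 at an unadjusted p under 0.05, and 1 without WT replicate 1.

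**Figure D3:**
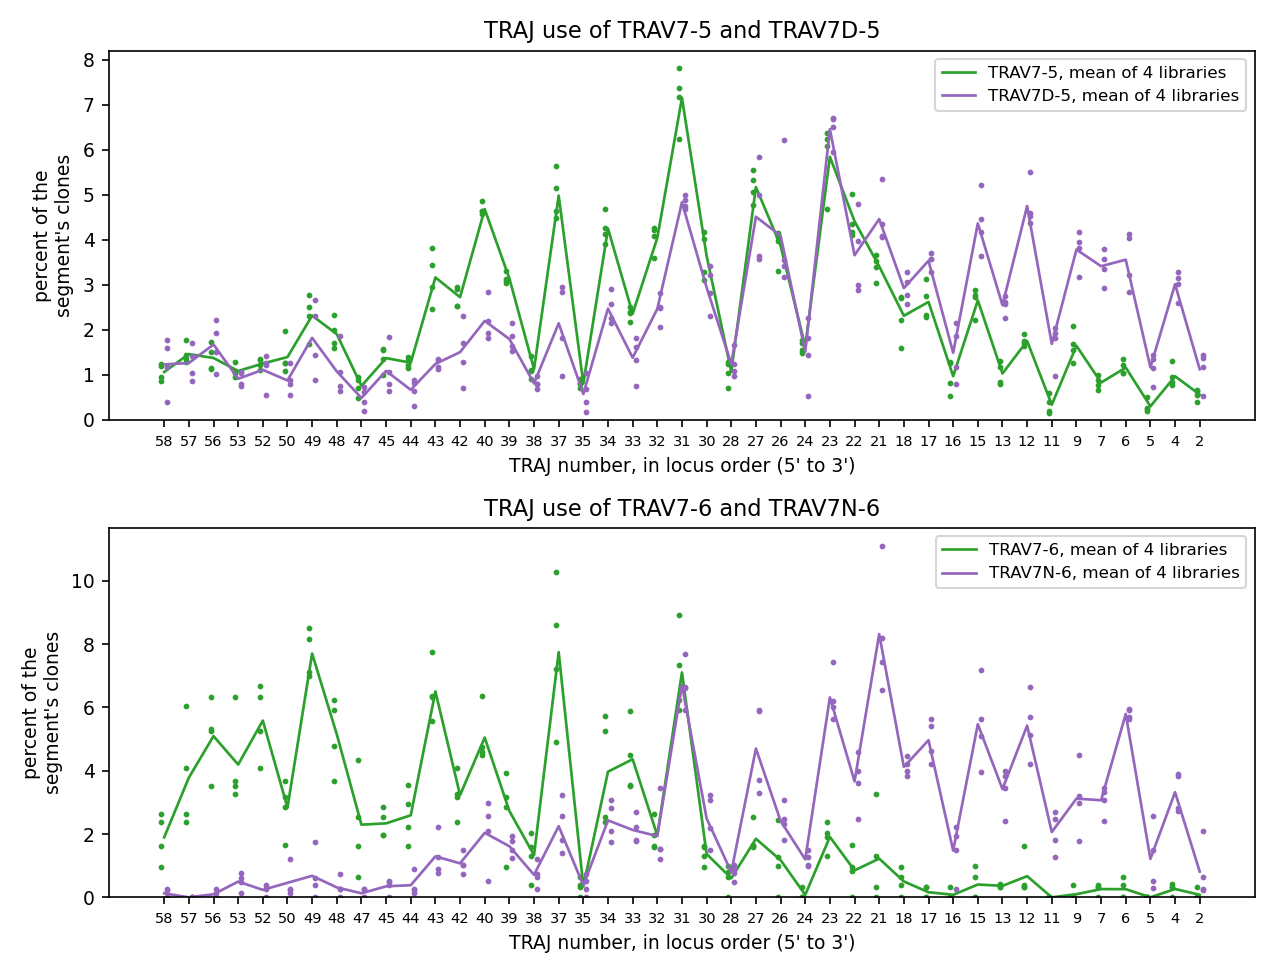
Percent of each segment's clones joined to each TRAJ segment (x axis, TRAJ number in locus order), with lines for the mean of 4 libraries and points for single libraries. The mean lines of TRAV7-5 and TRAV7-6 (green) lie above those of TRAV7D-5 and TRAV7N-6 (purple) from TRAJ37 to TRAJ49 and below them from TRAJ2 to TRAJ21.

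The family as a whole had a slightly lower mean TRAJ number than the other TRAV clones. The read-weighted mean TRAJ number of the family was 28.49 and 28.45 in WT versus 27.73 and 27.94 in Tet2/3 DKO, below that of the other TRAV clones in 4 of 4 libraries by 1.04 ± 0.383 (difference -1.04, exact sign-flip permutation test, p = 0.125). The family lay above the TRAV7-2 copies by 3.82. The Tet2/3 DKO libraries were lower than both WT libraries, with a difference of -0.63 (exact permutation test, p = 0.333, n = 2 per genotype, the smallest possible).

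TRAJ use of the family against the other TRAV clones was tested with edgeR over 43 segments, with the library as a block, and 6 were called (14%), 3 higher and 3 lower. The highest rise was at TRAJ28, with 0.831% and 0.995% of member reads in the WT libraries and 0.910% and 1.31% in Tet2/3 DKO, against 0.510% and 0.629% of other TRAV reads in WT versus 0.589% and 0.575% in Tet2/3 DKO (log2 fold change 0.80 ± 0.20, edgeR adjusted p = 0.0255). TRAJ6 averaged 2.53% ± 0.551 (SD, n = 4) of member reads and 1.68% ± 0.153 of the others (0.57 ± 0.12, edgeR adjusted p = 0.0216). TRAJ32 averaged 2.87% ± 0.370 and 2.08% ± 0.0433 (0.45 ± 0.11, edgeR adjusted p = 0.0255). All 3 were higher in the family in 4 of 4 libraries. The lowest was TRAJ57, with 1.26% and 0.690% of member reads in the WT libraries and 0.739% and 0.910% in Tet2/3 DKO, against 1.79% and 1.90% of other TRAV reads in WT versus 2.03% and 2.08% in Tet2/3 DKO (-1.15 ± 0.20, edgeR adjusted p = 0.00733). TRAJ13 averaged 1.496% ± 0.0883 in the family and 2.72% ± 0.239 elsewhere (-0.86 ± 0.12, edgeR adjusted p = 0.00327), and TRAJ15 averaged 3.14% ± 0.361 and 4.11% ± 0.107 (-0.39 ± 0.10, edgeR adjusted p = 0.0255). All 3 were lower in the family in 4 of 4 libraries. The other TRAV clones include the TRAV7-2 copies, which weigh on these comparisons. Over the 4 libraries, TRAJ15 held 9.06% of TRAV7-2 reads, far above the family, and TRAJ6 held 2.47%, close to the family. TRAJ13 held 3.2% of TRAV7-2 reads, TRAJ32 1.62% and TRAJ28 0.665%. The 6 segments were not tested with TRAV7-2 left out, so the fall at TRAJ15 may not hold against the remaining TRAV clones. Within the family TRAJ57 was unevenly spread, at 3.29% of TRAV7-6 reads, 0.197% of TRAV7D-3 reads and 0.0271% of TRAV7-3 reads, and the TRAV7-2 copies had 0.0457%. Against TRAV7-2 alone the family was therefore higher at TRAJ57 (log2 fold change 4.30). The number of calls rested on single libraries, with 12 without WT replicate 1. Without WT replicate 2 there were 2 calls, both lower in the family, so none of the 3 rises was called. Without Tet2/3 DKO replicate 1 there were 2 calls, of which 1 was among the 6. Counting each clone once gave 22 calls, of which 5 were among the 6, TRAJ15 being the exception.

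The 4 most common partners over all member clones were TRAJ31 (1669 clones, 6.70%), TRAJ23 (1450 clones), TRAJ27 (1250 clones) and TRAJ21 (1082 clones). Between genotypes, edgeR called none of the 43 TRAJ segments of the family (0%), and 2 had an unadjusted p under 0.05. The lowest p was at TRAJ24, with 0.951% and 1.301% of member reads in the WT libraries and 1.79% and 2.18% in Tet2/3 DKO (log2 fold change 0.82 ± 0.27, edgeR adjusted p = 0.514). The groups did not overlap there, nor at many other TRAJ segments. With 2 libraries per genotype, a lack of overlap gives an exact permutation p of 0.333, the smallest possible. It therefore does not set these segments apart. In Tet2/3 DKO replicate 2, 1 out-of-frame TRAV7D-5 clone gave 365 of the TRAJ24 reads, which was 0.910% of the family's reads there. The lack of overlap at TRAJ24 rested on this clone. DESeq2 called none, with 7 at an unadjusted p under 0.05. Leaving out single libraries gave 1 call without WT replicate 1, 2 without WT replicate 2 and 1 without Tet2/3 DKO replicate 1, again with the spread taken from the other genotype alone. Whether the family's J use differed from the other TRAV clones by a different amount in the 2 genotypes was tested as an interaction, and edgeR called none of 43 (0%), with 2 at an unadjusted p under 0.05.

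Member clones were more often in frame than the other TRAV clones. In-frame clones without a stop held 91.83% and 91.55% of member reads in WT versus 90.78% and 90.04% in Tet2/3 DKO, above the other TRAV clones in 4 of 4 libraries by 4.66 percentage points ± 1.65 (SD, exact sign-flip permutation test, p = 0.125). With clones that had no covered CDR3 left out of both sets, the difference was 2.36 points. The TRAV7-2 copies were in frame still more often, by 6.15 points of reads. The 2 genotypes differed by -1.28 points, WT higher in both libraries (exact permutation test, p = 0.333, n = 2 per genotype). Counted as clones, WT and Tet2/3 DKO were 89.3% ± 0.282 and 89.2% ± 0.402 in frame.

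Members of number 5 and number 3 differed in frame and length. TRAV7-3 and TRAV7D-3 were in frame in 94.4% and 94.6% of clones, TRAV7-6 and TRAV7N-6 in 91.6% and 90.4%, and TRAV7-5 and TRAV7D-5 in 86.9% and 87.0%. Number 5 with its copies was lower than number 3 with its copies by 7.45 points ± 0.457 (difference -7.45, lower in 4 of 4 libraries, exact sign-flip permutation test, p = 0.125, a comparison added after values were seen). Out-of-frame clones made up 12.1% of TRAV7-5, 12.2% of TRAV7D-5, 5.21% of TRAV7-3 and 4.77% of TRAV7D-3 clones. Stop codons in an otherwise in-frame CDR3 were found in 0.16% of member clones. In-frame clones had a mean CDR3 length, cysteine and last residue included, of 13.5 residues for TRAV7-5 and for TRAV7D-5, and 13.1 residues for TRAV7-3, for TRAV7D-3 and for TRAV7N-6. Number 5 exceeded number 3 by 0.350 residues ± 0.0360 in 4 of 4 libraries (exact sign-flip permutation test, p = 0.125). TRAV7N-6 clones were shorter than TRAV7-6 clones by 0.208 residues ± 0.0911 (difference -0.208, 4 of 4 libraries, p = 0.125 by the same exact test). The means of the D and original copies of number 5 lay within 0.1 residue of each other in each library.

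**Figure D4:**
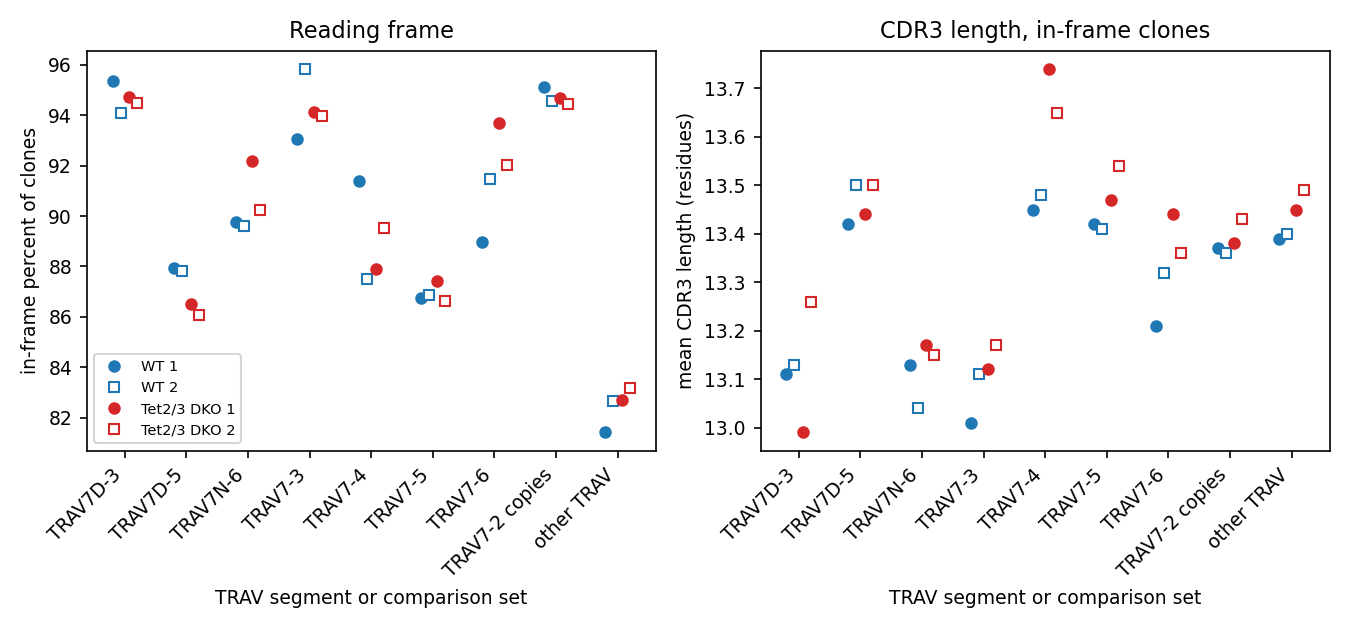
In-frame percent of clones (left) and mean CDR3 length of in-frame clones in residues (right) for the members with over 300 clones, TRAV7-2 copies and other TRAV clones, 1 point per library. TRAV7-5 and TRAV7D-5 are less often in frame and longer than TRAV7-3 and TRAV7D-3. Axes do not start at 0.

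Over the whole family, the read-weighted CDR3 length was 13.45 and 13.35 residues in the WT libraries and 13.32 and 13.25 in Tet2/3 DKO. It differed from the other TRAV clones by -0.0606 residues ± 0.141, with 1 library of 4 above (exact sign-flip permutation test, p = 0.5). The genotypes differed by -0.115 residues when reads were counted (exact permutation test, p = 0.333, n = 2 per genotype) and by 0.0614 in the other direction when each clone was counted once. Bases between the V and the J part averaged 2.30 and 2.18 per read in WT members and 2.19 and 2.10 in Tet2/3 DKO members. This was above the other TRAV clones by 0.223 ± 0.0945 bases in 4 of 4 libraries (exact sign-flip permutation test, p = 0.125), and by 0.0948 when each clone was counted once. No inserted base was found in 25.1% of member clones and 25.7% of the others.

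Large clones were defined as those with at least 0.02% of a library's TCRα reads. In the family there were 35 and 24 in WT versus 11 and 30 in Tet2/3 DKO, and they held 20.6% and 6.003% of member reads in the WT libraries and 3.05% and 16.1% in Tet2/3 DKO. The libraries of each genotype differed more from each other than the genotypes did (difference of means -3.76 points, exact permutation test, p = 0.667, n = 2 per genotype), and without WT replicate 1 the difference was 3.55 points. Large clones of the other TRAV segments held 11.7% and 7.66% of their reads in WT versus 7.27% and 19.7% in Tet2/3 DKO. The family was higher in WT replicate 1 and lower in the other libraries, so that the mean difference of -0.156 points ± 6.14 took no common sign (exact sign-flip permutation test, p = 1). Of the 100 large member clones, 52 carried TRAV7-5 and 26 TRAV7D-5, which made up 10174 and 5078 of all 24903 member clones. Of the large clones 95 were in frame, and 5 were out of frame.

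**Figure D5:**
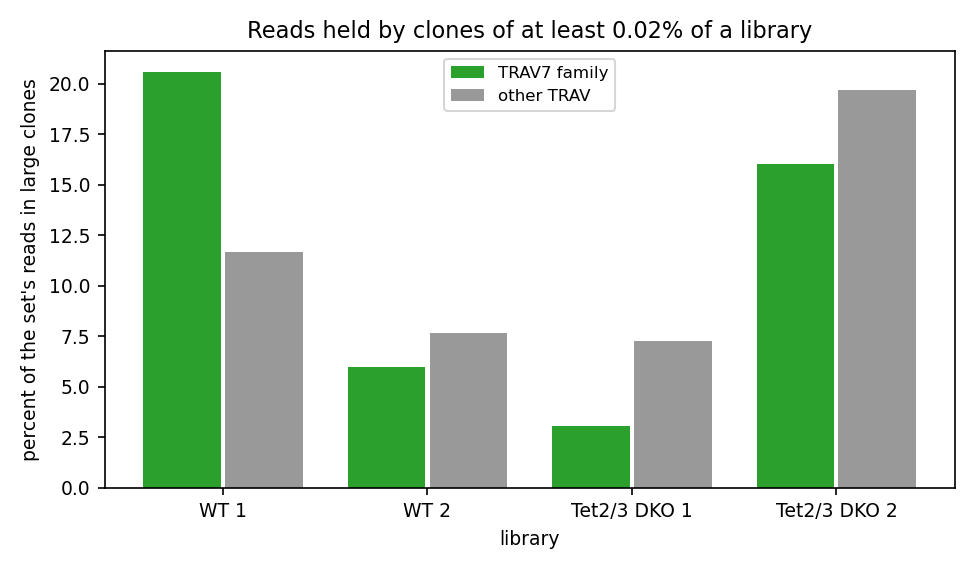
Percent of reads held by large clones (at least 0.02% of the library's TCRα reads) in the TRAV7 family (green) and the other TRAV clones (grey), 1 pair of bars per library. WT replicate 1 is the only library in which the family bar (20.6%) exceeds the other bar (11.7%).

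The CDR3 sequences of the most abundant member clone of each library are shown to compare the largest clones of the 4 libraries. Capitals mark the bases between the ends of the V and J parts as the deposited tables place them. The V or J part can run past the end of the germline segment, by 1 base of V in the WT replicate 1 clone and by 2 bases of J in the WT replicate 2 clone, and such bases are in lower case.
WT replicate 1, TRAV7D-5 and TRAJ26: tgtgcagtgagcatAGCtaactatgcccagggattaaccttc
WT replicate 2, TRAV7-3 and TRAJ31: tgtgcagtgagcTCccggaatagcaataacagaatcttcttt
Tet2/3 DKO replicate 1, TRAV7D-5 and TRAJ21: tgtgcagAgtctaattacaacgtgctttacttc
Tet2/3 DKO replicate 2, TRAV7-3 and TRAJ33: tgtgcagatagcaactatcagttgatctgg
The WT replicate 1 clone held 3102 reads, 1.80% of the library (95% Wilson confidence interval 1.74% to 1.86%), and was the most abundant TCRα clone there. Its CDR3 was also found in 23 smaller member clones of that library with 292 reads, and in no other library. The WT replicate 2 clone held 187 reads (0.0864%, 0.0749% to 0.0997%) and the Tet2/3 DKO replicate 1 clone 137 reads (0.0702%, 0.0594% to 0.0830%). The CDR3 nucleotide sequence of the former was also found with 2 reads in Tet2/3 DKO replicate 1, and that of the latter in no other library. The Tet2/3 DKO replicate 2 clone held 1549 reads, 0.538% of the library (0.512% to 0.566%), and ranked 3 among all TCRα clones. It had no inserted base and a CDR3 of 10 residues, and the same nucleotide sequence was found with 6 reads in WT replicate 2.

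Clones with at least 0.1% of a library numbered 2 in WT replicate 1, 0 in WT replicate 2, 0 in Tet2/3 DKO replicate 1 and 7 in Tet2/3 DKO replicate 2. The second in WT replicate 1 joined TRAV7-5 to TRAJ31 (197 reads). In Tet2/3 DKO replicate 2 the others joined TRAV7-5 to TRAJ26 (495 reads), TRAJ30 (459 reads) and TRAJ22 (360 reads), TRAV7-6 to TRAJ56 (353 reads), and TRAV7D-5 to TRAJ24 (365 reads) and TRAJ35 (305 reads). The last 2 are shown because they were out of frame and so do not encode a chain on their own.
TRAV7D-5 and TRAJ24: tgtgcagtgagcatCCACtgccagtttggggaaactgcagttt
TRAV7D-5 and TRAJ35: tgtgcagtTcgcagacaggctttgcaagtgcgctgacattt
Their CDR3 regions have 43 and 41 bases. Of clones with at least 0.1% of a library, 2 of 9 member clones and 0 of 49 clones of the other TRAV segments were out of frame. At 0.05% the counts were 2 of 26 and 7 of 208, and at 0.02% they were 5 of 100 and 35 of 829. The difference between the sets was not tested. In Tet2/3 DKO replicate 2, which holds both, the in-frame share of TRAV7D-5 reads was 80.1%, against 93.6% and 89.8% in WT and 87.8% in Tet2/3 DKO replicate 1.

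Chains found in all 4 libraries were counted after merging in-frame clones by V number, J segment and CDR3 residues. The family had 352 such chains, 9.82% and 8.39% of the distinct member chains in the WT libraries and 8.77% and 7.63% in Tet2/3 DKO. The other TRAV segments had 10.5% and 8.60% in WT versus 8.77% and 8.01% in Tet2/3 DKO, so the family was lower by 0.306 points ± 0.266 on average (difference -0.306, exact sign-flip permutation test, p = 0.125), with nearly equal values in Tet2/3 DKO replicate 1. This direction did not hold in every setting: the difference was 0.0247 points without clones of 1 read and 0.000238 points without WT replicate 2. The other TRAV segments include the TRAV7-2 copies, which had 584 of their 2337 chains found in all 4 libraries. In the TRAV7-2 copies the shares were 23.6% and 21.5% in the WT libraries and 21.7% and 19.4% in Tet2/3 DKO. A comparison with TRAV7-2 left out was not tested. The family's lower value can therefore not be read as lower than the remaining TRAV segments. Of the 352 chains, 267 were of number 5, 69 of number 3 and 16 of number 6, and none were of number 1 or 4. Clones of these shared chains had 1.04 inserted bases on average and none in 51.0% of clones, compared with 3.09 bases and 15.4% for chains seen in a single library. These values are a description, with no test.

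The 3 shared member chains with the most reads are shown by their leading nucleotide form, with capitals as above.
Number 5 and TRAJ23, 14 residues: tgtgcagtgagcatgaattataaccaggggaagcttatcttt
Number 5 and TRAJ22, 15 residues: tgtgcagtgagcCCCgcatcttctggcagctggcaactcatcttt
Number 5 and TRAJ23, 12 residues: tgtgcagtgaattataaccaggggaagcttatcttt
The first had 78 and 79 reads in WT versus 87 and 206 in Tet2/3 DKO, from both TRAV7-5 and TRAV7D-5, and all of its reads had this form, with no inserted base. The second had 18 and 27 reads in the WT libraries and 11 and 393 in Tet2/3 DKO, where the clone of 360 reads named above belongs to it. It had 5 nucleotide forms, and the one shown, with 3 inserted bases, held 90.4% of the reads and was present in all 4 libraries. The third had 46 and 94 reads in WT versus 112 and 127 in Tet2/3 DKO over 6 nucleotide forms. As shares of the library, the first 2 chains were highest in Tet2/3 DKO replicate 2 (0.0716% and 0.137%), and the last was highest in Tet2/3 DKO replicate 1 (0.0574%).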

How the data were processed

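TCRα clones of 2 WT and 2 Tet2/3 DKO spleen libraries were analysed, grouped by the labels. The TCRβ tables were not used, and thymus and transferred-cell libraries were not analysed here. The authors trimmed reads with fastp 0.21.0 after bcl2fastq 2.20.0 (versions per the labels) and assembled clones with MiXCR against mm10. The deposited tables give a read count per clone beside its fraction of the library, and the fraction equalled the share of the counts. All values came from the deposited counts. Near-identical V copies were assigned by the first listed hit.

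Members and lists were chosen with earlier results of these data known. Reads per segment were tested with edgeR 4.0.16 (quasi-likelihood, scaled by totals, segments with at least 10 reads, Benjamini-Hochberg, 0.05); DESeq2 1.42.0 was an alternative. The edgeR script was tested on simulated data. Single values were compared by exact permutation over 6 assignments of genotype or 16 sign patterns. Segments with at least 100 reads, the most abundant clone per library, clones of at least 0.1%, up to 3 TRAJ segments risen and 3 fallen against other TRAV, and 3 shared chains were named. TRAV7D-4, TRAJ of copy comparisons, TRAJ31 and TRAJ24 were chosen after their values were seen. Python 3.11.15, scipy 1.17.1 and R 4.3.3 were used.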

Additional observations from a re-analysis of the deposited data

How the results depend on the processing

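The log2 ratio of the family share was -0.21 to 0.0305 with single libraries left out and 0.0073 with each clone counted once. Against TRAV7-2 copies in place of all other TRAV clones, the difference in mean TRAJ number was 3.82, in CDR3 length 0.0646 residues, in in-frame reads -6.15 points, and the log2 fold change of TRAJ57 was 4.30. The genotype difference in CDR3 length was 0.0614 with each clone counted once. The genotype difference in reads of large clones ranged from -11.1 to 3.55 points with single libraries left out. The difference of family and other TRAV in large clones ranged from -3.18 to 1.20 points and was 1.36 and 2.43 points when large meant 0.05% and 0.1%. The difference in shared chains ranged from -0.337 to 0.000238 points and was 0.0247 without clones of 1 read. The calls among TRAJ segments of the family between genotypes ranged from 0 to 2 with single libraries left out. The calls of family against other TRAV ranged from 2 to 12, and were 22 with each clone counted once, 16 without the 10 most abundant clones of each library (chosen after seeing the data) and 28 against TRAV7-2. For TRAV7D-5 against TRAV7-5 they ranged from 8 to 17, and for TRAV7D-3 against TRAV7-3 from 0 to 1. The cause of these changes was not tested.

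With single libraries left out, member log2 fold changes between genotypes ranged from -0.20 to 0.17 (TRAV7D-3), -0.54 to 0.25 (TRAV7D-4), -0.87 to 0.0856 (TRAV7D-5), -0.34 to 0.69 (TRAV7N-6), -0.55 to 0.16 (TRAV7-4), -0.13 to 0.0202 (TRAV7-5) and -0.40 to 0.0624 (TRAV7-6). With each clone counted once they were 0.12 (TRAV7D-4), 0.0279 (TRAV7-4) and 0.0195 (TRAV7-5), and with tied V hits split 0.00509 (TRAV7D-4). None was called in any of these settings. The labels name no pairing of the libraries. Same-numbered libraries did not deviate together (correlation 0.09 over TRAV segments and -0.18 over the family's TRAJ segments), which cannot show whether any libraries shared a batch or litter. With the replicate block, edgeR called 0 member segments and 0 TRAJ segments of the family, and crossed pairing also gave 0 of the latter. Of the alternatives for values that answer a comparison, 125 kept direction and side of the threshold, 15 reversed and 12 moved. Depth limits TRAV7D-4 and TRAV7N-4. The 24727 member clones with a CDR3 hold 20527 distinct combinations of V number, J and CDR3, so clone counts exceed the number of distinct chains.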
